A study of Homo sapiens with 12 samples.

Results

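The genes described here are 57 named genes on the short arm of human chromosome 8 (8p), taken by symbol from a table of 26485 genes. They were selected on measured values of these samples, after genes of 8p had been seen to shift together. The selection covers the columns of all 3 lines and names no comparison. The fold changes between DU145KO+α2 and DU145KO+vector are taken here as the values that chose the genes and are given without a p-value. A part of DU145KO in the selection is not known, so the adjusted p-values printed for comparisons with DU145KO describe the fit over all genes and are not independent evidence. All 57 lie on 8p in the hg38 build, from FBXO25, which starts at position 406958, to ADAM9, which ends at position 39105261. Of these, 56 passed the filter on low counts and were among the 14732 genes tested. The gene that did not, DOK2, an adaptor protein of tyrosine kinase signalling, had 0 or 1 count in every sample.

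DU145 is an established prostate cancer cell line of epithelial origin, and all 3 lines compared stem from the same knock-out cells. In these, ITGA2 was edited by Crispr/Cas9 to remove the α2 integrin subunit from the cell surface. DU145KO was left untransfected, DU145KO+α2 was stably transfected with α2 cDNA in the pawneo2 plasmid, and DU145KO+vector was stably transfected with the empty plasmid. Both transfected lines had been selected with geneticin and the knock-out cells by sorting, and the methods do not say that any line was a single clone, so that a line and the cells that founded it cannot be told apart. RNA came from spheroids of 8000 cells kept for 72 hours in serum-free medium, with 4 replicates of each line and 12 samples in all.

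The short arm of chromosome 8 is among the regions most often lost in prostate cancer, and it holds several genes with tumour suppressor activity in experimental models, among them DLC1, MTUS1 and TUSC3. Genes on a chromosome segment share its copy number, so that gain or loss of a segment usually moves the RNA of many neighbours by a similar factor, while genes under strong regulation of their own may depart from it. Here "dosage-like" means only that neighbouring genes differed between lines by a similar fold. Copy number was not measured.

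Total counts were 13948734 to 19988111 per sample, and 3 counts, taken as the limit of detection, correspond to 0.150 to 0.215 CPM (read counts scaled to a common library size, here after TMM normalization). ITGA2 was at 15.7 to 25.8 CPM without transfection, 13.0 to 20.2 CPM with the empty plasmid and 259 to 332 CPM with α2 cDNA. An edited gene can still be transcribed, so these levels check the transfected cDNA and not the knock-out. All 5 epithelial markers (KRT8, KRT18, KRT19, EPCAM and CDH1) were detected in each line, with a summed level of 860 to 1154 CPM in DU145KO+α2, 1142 to 1387 CPM in DU145KO+vector and 1211 to 1584 CPM in DU145KO. EPCAM was at 57.3 to 88.4 CPM in DU145KO+α2 and 140 to 186 CPM in DU145KO. CDH1 was at 46.8 to 74.7 CPM and 118 to 161 CPM in the same lines. KRT18 was also lower in DU145KO+α2 without overlap, while KRT8 and KRT19 overlapped between these lines. Of the luminal prostate markers given here, KLK2 and KLK3 had no count in any sample, and TMPRSS2 ranged from 0 to 0.860 CPM, above the limit of detection in some samples. Immune markers summed to 47.8 to 81.8 CPM in all, of which only CD68 passed the limit of detection. Fibroblast markers summed to 8.47 to 12.7 CPM, most of it COL1A1 at 7.65 to 12.1 CPM, with PDGFRB at 0.0999 to 0.758 CPM and LUM at 0. Endothelial markers summed to 1.09 to 3.79 CPM.

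The 8p genes were higher in DU145KO+α2 than in DU145KO+vector by a similar factor over most of the arm, and DU145KO lay between them. The median log2 fold change of the 56 tested genes was 0.44 in DU145KO+α2 against DU145KO+vector, a fold of 1.36, with an interquartile range of 0.34 to 0.54, and 54 of the 56 were above 0. Against untransfected DU145KO, the median was 0.27 in DU145KO+α2 (fold 1.20, 51 above 0) and −0.19 in DU145KO+vector (fold 0.879, 49 below 0). The 3 comparisons share samples pairwise and are not independent of each other. Over all genes tested the medians were −0.01, 0.00 and 0.00 in the same order, and over the 316 tested genes of the long arm (8q) they were 0.00, 0.00 and −0.02.

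In the α2 against vector comparison, taken as the one that chose them, 41 of the 56 genes (73.2%) passed an adjusted p of 0.05 as higher in DU145KO+α2, where 5.96% of all genes tested did, and 1, DLC1, passed as lower, where 5.95% did. With a fold above 2 as well, 5 of the 56 passed, where 2.21% of all genes did in either direction. No overlap between the 4 DU145KO+α2 samples and the 4 DU145KO+vector samples, with DU145KO+α2 above, was seen for 44 of the 56 genes and for 8.40% of all genes tested. Since the genes were chosen on these values, nothing is read from these counts.

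Level differences between lines held in each sample. When each gene was set against its mean in DU145KO, the median over the 56 genes was between 0.25 and 0.27 on the log2 scale in every DU145KO+α2 sample and between −0.25 and −0.14 in every DU145KO+vector sample, while the DU145KO samples themselves spread from −0.04 to 0.04. The 4 samples of each line did not overlap with those of another line on this measure. Since the genes were chosen on these samples, this separation is a description and nothing is read from it. On 8q the same median stayed between −0.07 and 0.02 in all 12 samples. Between samples with the same replicate number, the median difference was 0.37 to 0.48 for DU145KO+α2 minus DU145KO+vector, 0.22 to 0.30 for DU145KO+α2 minus DU145KO and −0.20 to −0.15 for DU145KO+vector minus DU145KO.

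**Figure D1:**
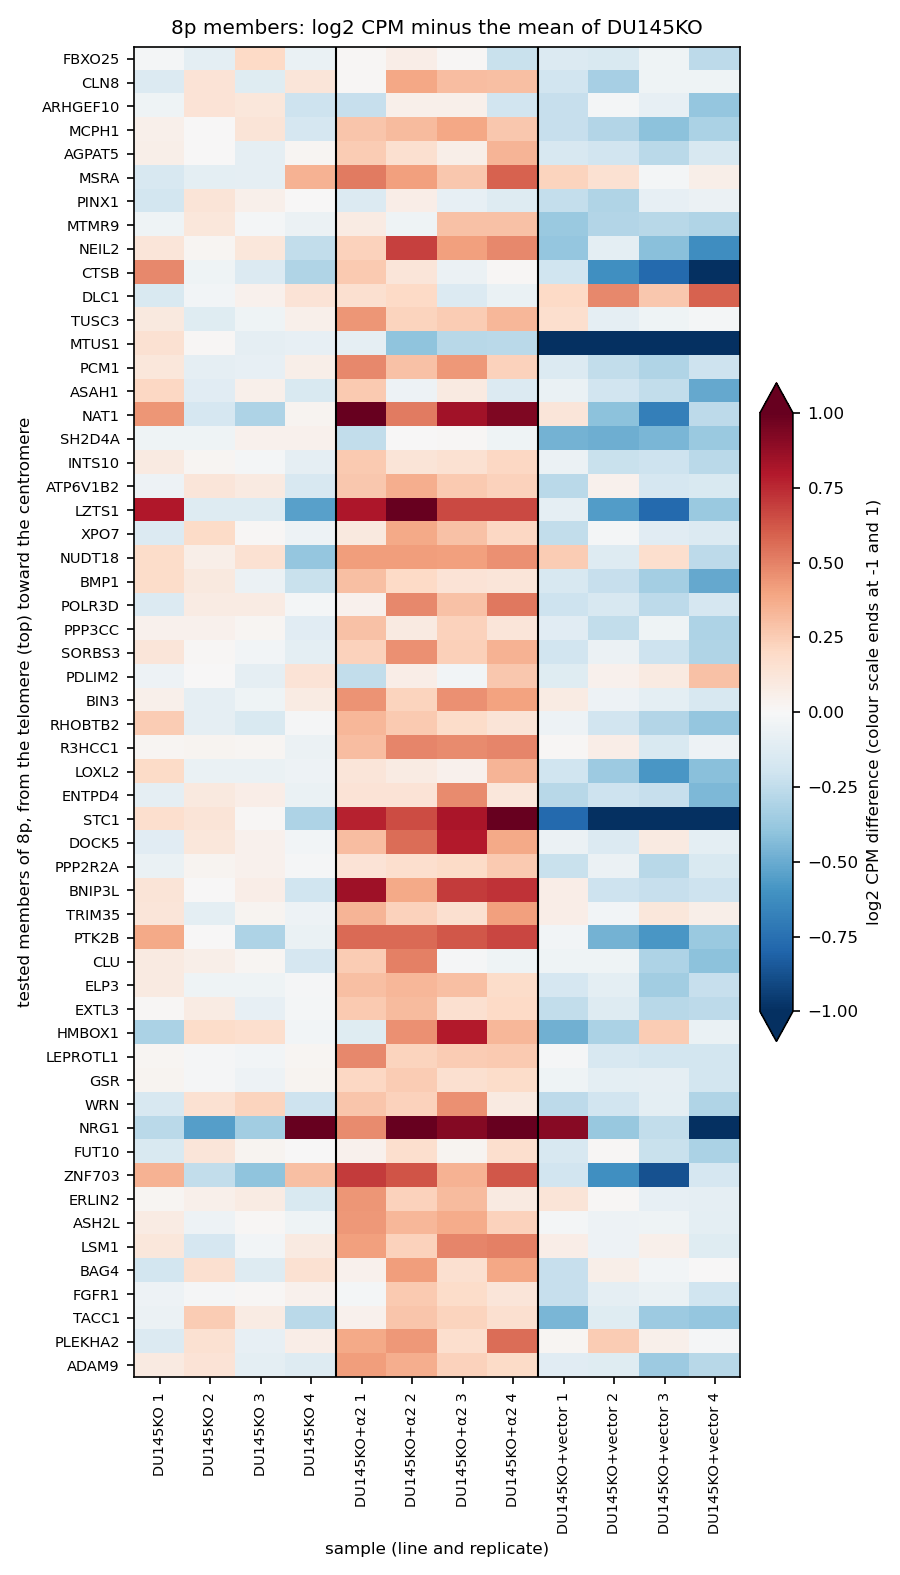
Log2 CPM of the 56 tested 8p genes (rows, from the telomere at the top toward the centromere) in the 12 samples (columns), minus the mean of the 4 DU145KO samples for that gene. Red is above and blue below that mean; the DU145KO+α2 columns are mostly red and the DU145KO+vector columns mostly blue, with DLC1 and MTUS1 as visible departures.

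Mean levels ran in the order DU145KO+vector, DU145KO, DU145KO+α2 for 44 of the 56 genes. DU145KO+α2 had the highest mean for 49 genes and DU145KO+vector the lowest for 49. DU145KO had the highest mean for 5 genes and the lowest for 7. This order is a description, since the selection may have used all 3 lines. Complete separation of all 3 lines in this order was seen for 6 of the 56 genes (MCPH1, PCM1, ENTPD4, STC1, ELP3 and EXTL3) and for 0.373% of all genes tested.

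The shift covered the arm from its outer end to near 40 Mb, and the genes beyond did not share it as a set. For the genes described here, the median log2 fold change of DU145KO+α2 against DU145KO+vector was 0.40 in the outermost 10 Mb (5 genes), 0.38 from 10 to 20 Mb (13 genes), 0.48 from 20 to 30 Mb (24 genes) and 0.41 from 30 to 40 Mb (14 genes). Against DU145KO, the medians in these 4 windows were 0.20, 0.16, 0.28 and 0.29 for DU145KO+α2 and −0.18, −0.25, −0.18 and −0.14 for DU145KO+vector. No selected gene lies beyond 40 Mb, a boundary that was set after the values were seen.

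Genes of the arm that had not been selected had similar medians. They lie on the arm where the shift had been seen before the selection, and the boundary at 40 Mb was set on the values. Their medians and counts are thus a description and no independent check. The 109 other tested genes of 8p that start before 40 Mb had medians of 0.46 for DU145KO+α2 against DU145KO+vector, 0.29 for DU145KO+α2 against DU145KO and −0.22 for DU145KO+vector against DU145KO. In the first of these comparisons 63 of the 109 (57.8%) passed as higher and 0 as lower by the edgeR test. Of all genes tested, 5.96% passed as higher and 5.95% as lower. At an unadjusted p under 0.05, 1 of the 109 was lower, and DESeq2 and voom with limma called 0 lower. By contrast, the 20 tested genes of 8p that start from 40 Mb on had medians of −0.01, 0.07 and 0.09, and 1 of the 20 (5.00%) passed as higher in DU145KO+α2 than in DU145KO+vector. ADAM9, a membrane-anchored metalloprotease and the selected gene nearest the centromere, had a log2 fold change of 0.51 ± 0.09 (SE) in that comparison. Next inward, IDO1 had 0.59 ± 0.36, C8orf4 (start 40153482) had 0.97 ± 0.40 and SFRP1 (start 41261962) had 0.83 ± 0.12. GOLGA7, which starts at position 41490396, had 0.06 ± 0.07. In DU145KO+vector against DU145KO, SFRP1 was higher (0.31 ± 0.12), unlike the 109 genes as a set. IDO1 (−0.43 ± 0.37) and C8orf4 (−0.90 ± 0.41) were lower there. Where the shift ends between ADAM9 and GOLGA7 is thus not resolved.

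**Figure D2:**
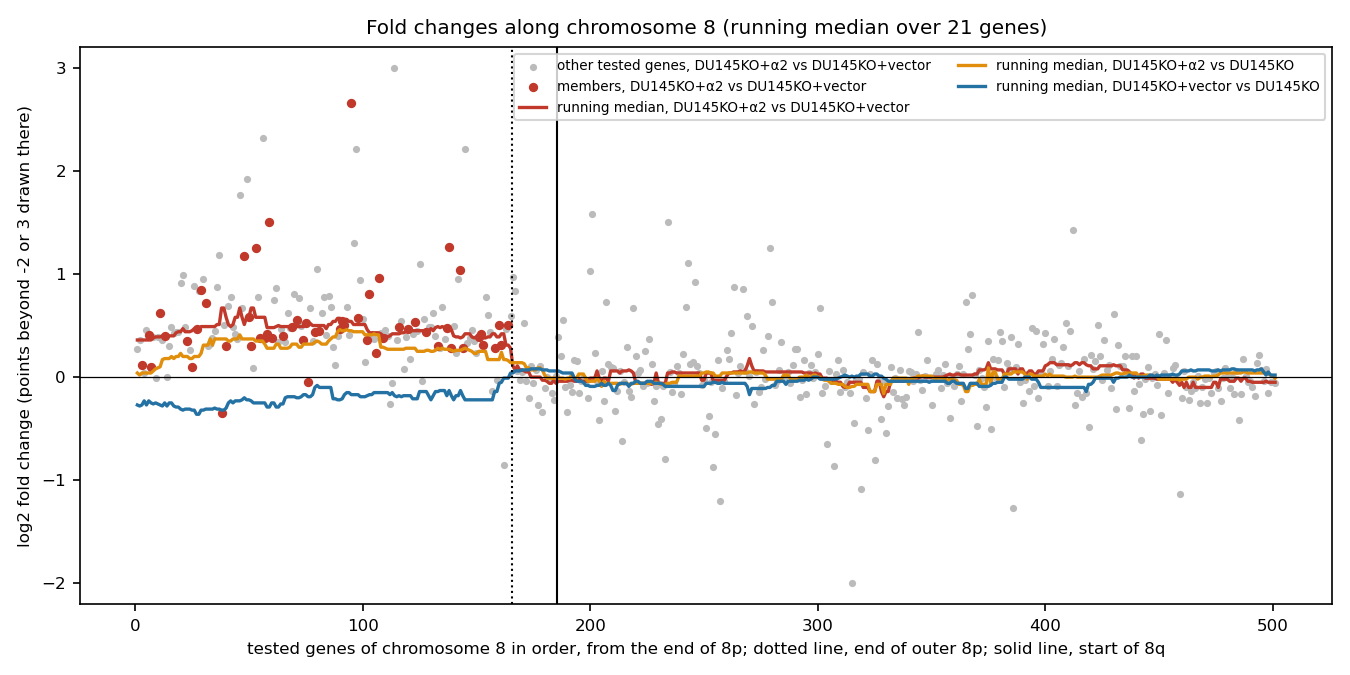
Log2 fold change of DU145KO+α2 against DU145KO+vector (points) for the tested genes of chromosome 8 in their order along the chromosome, with running medians over 21 genes for the 3 comparisons. Selected genes are red; left of the dotted line (genes that start before 40 Mb) the medians lie above 0 for DU145KO+α2 and, except at IDO1 next to the line (0.04), below 0 for DU145KO+vector against DU145KO, and right of it all 3 lie between −0.19 and 0.18.

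Across the genome, 253 windows of 10 Mb held at least 20 tested genes. The 4 windows of 8p before 40 Mb ranked from 1 to 4 by median log2 fold change of DU145KO+α2 against DU145KO+vector, with values of 0.40 to 0.51 over all their tested genes. These windows include the selected genes, and both the comparison and the edge at 40 Mb were chosen on such values, so the ranks are a description. By the median of DU145KO+α2 against DU145KO the same windows ranked 1, 2, 3 and 6 from the highest, and by that of DU145KO+vector against DU145KO they ranked 1, 2, 4 and 5 from the lowest. In the latter their medians were −0.30 to −0.18, and windows elsewhere came close. Chromosome 5 from 50 to 60 Mb ranked 3 from the lowest at −0.18, and the first 10 Mb of chromosome 4 had −0.17. Without the selected genes, the medians of DU145KO+α2 against DU145KO+vector from the outer end inward were 0.39 (17 genes), 0.68 (22 genes), 0.46 (45 genes) and 0.46 (25 genes). The window of 8p and 8q from 40 to 50 Mb had −0.03. By size in either direction, windows of chromosome 9 with negative medians ranked among them, the largest at −0.49 from 30 to 40 Mb of that chromosome.

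**Figure D3:**
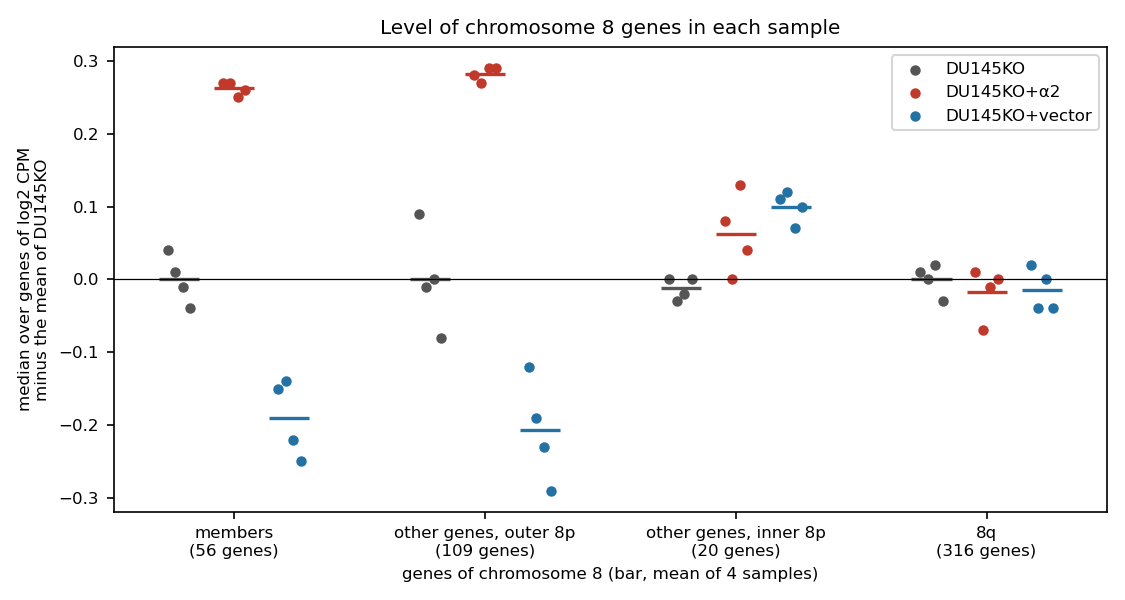
Median over genes of log2 CPM minus the DU145KO mean in each of the 12 samples (points, with the mean of 4 as a bar) for the selected genes, the other tested genes of 8p before 40 Mb (outer 8p) and from 40 Mb (inner 8p), and 8q. The lines separate in the first and second set, at 0.25 to 0.27 and −0.25 to −0.14 for the transfected lines in the selected genes, and lie within −0.07 to 0.02 on 8q.

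DU145KO+α2 was then set against DU145KO, a comparison that shares at least its 4 DU145KO+α2 samples with the selection. Of the 56 genes, 20 (35.7%) were called higher, where 3.09% of all genes tested were, and 0 lower, where 5.08% were (edgeR quasi-likelihood test, adjusted p under 0.05). At an unadjusted p under 0.05, 1 was lower, and DESeq2 and voom with limma called 0 lower. NRG1 alone of the 56 had a fold above 2 (2.05, edgeR adjusted p = 0.239), so that 0 passed on p and fold, while 2.10% of all genes tested did in either direction. With the replicate number as a block the counts were 39 higher and 1 lower, against 9.93% and 12.4% of all genes. The other 109 genes of outer 8p gave 25 higher (22.9%). In 29 of the 56 genes the 4 DU145KO+α2 samples all lay above the 4 DU145KO samples, as did 5.51% of all genes. These counts describe genes chosen on some of the same samples, and nothing is read from their distance to the share of all genes.

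The 20 genes called higher than in DU145KO were spread over the arm and over functions. They comprise MCPH1 and NEIL2 of DNA repair, TUSC3 and EXTL3 of glycosylation, the centrosome protein PCM1, the adhesion and cytoskeleton genes SORBS3, BIN3, DOCK5 and PTK2B, the acetyltransferase NAT1, the proton pump subunit ATP6V1B2, the RNA and chromatin genes POLR3D, R3HCC1, ELP3, ASH2L and LSM1, and BNIP3L, TRIM35, LEPROTL1 and PLEKHA2. For 9 of the 20 (PCM1, SORBS3, R3HCC1, DOCK5, BNIP3L, PTK2B, LEPROTL1, ASH2L and LSM1) the call held under every alternative test, filter and scaling run and with each sample left out in turn. The other 11 lost it in at least 1 of these fits. Without DU145KO replicate 3, or without DU145KO+α2 replicate 4, 13 genes were called.

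DU145KO+vector was set against DU145KO, with at least its 4 DU145KO+vector samples shared with the selection, so that these counts too are a description. Of the 56 genes, 5 were called lower (8.93%), where 1.84% of all genes tested were, and 0 higher, where 0.496% were (edgeR quasi-likelihood test, adjusted p under 0.05). At an unadjusted p under 0.05, 24 were lower and 1 was higher, while DESeq2 called 8 lower and 1 higher and voom with limma 4 lower and 0 higher. The shares of all genes at these settings are not given here, so nothing is read from these counts. The 5 genes were MCPH1, MTUS1, SH2D4A, LOXL2 and STC1, and those with a fold above 2 were MTUS1 and STC1, against 0.835% of all genes in either direction. The call held for MTUS1 and SH2D4A in every alternative run. With the replicate block the counts were 26 lower and 1 higher, where 7.85% and 5.59% of all genes were called. Among the 109 other genes of outer 8p, 6 were called lower (5.50%). The DU145KO+vector samples all lay below the DU145KO samples for 13 of the 56 genes and for 4.80% of all genes.

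The count of genes lower in DU145KO+vector moved with single samples. It was 2 without DU145KO replicate 1 or 2 or DU145KO+vector replicate 2 or 3, 3 without DU145KO replicate 3, DU145KO+α2 replicate 1 or 2 or DU145KO+vector replicate 4, and 8 without DU145KO replicate 4. Without DU145KO replicate 4 or DU145KO+vector replicate 1, 1 gene was called higher.

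How closely each gene kept to the arm was described by its distance from the median of the other 129 tested genes of 8p, with 0.3 on the log2 scale taken as near. In DU145KO+α2 against DU145KO+vector that median was 0.43, and 42 of the 56 genes lay within 0.3 of it. The 9 genes above were STC1, LZTS1, NRG1, NAT1, MTUS1, ZNF703, PTK2B, NEIL2 and BNIP3L. The 5 below were DLC1, PDLIM2, PINX1, ARHGEF10 and FBXO25. Against DU145KO, 45 of the 56 lay within 0.3 of the 8p median of 0.24 in DU145KO+α2 and 50 lay within 0.3 of the median of −0.21 in DU145KO+vector. In the first of these, NAT1, LZTS1, STC1, BNIP3L, PTK2B, NRG1 and ZNF703 lay above and MTUS1, ARHGEF10, PINX1 and SH2D4A below. In the second, DLC1 and MSRA lay above and STC1, MTUS1, CTSB and LZTS1 below. Both bands against DU145KO also take in genes with little or no shift, since 0.3 is more than the size of either median. Examples are FBXO25 at −0.03 in DU145KO+α2 and TUSC3 at 0.01 in DU145KO+vector. Nearness to the median in the comparisons with DU145KO thus does not show that a gene shared the shift. In DU145KO+α2 against DU145KO+vector, the 42 genes near the median had a median average log2 CPM of 6.22 and a median SE of 0.09, and the 14 departures had 4.09 and 0.12.

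**Figure D4:**
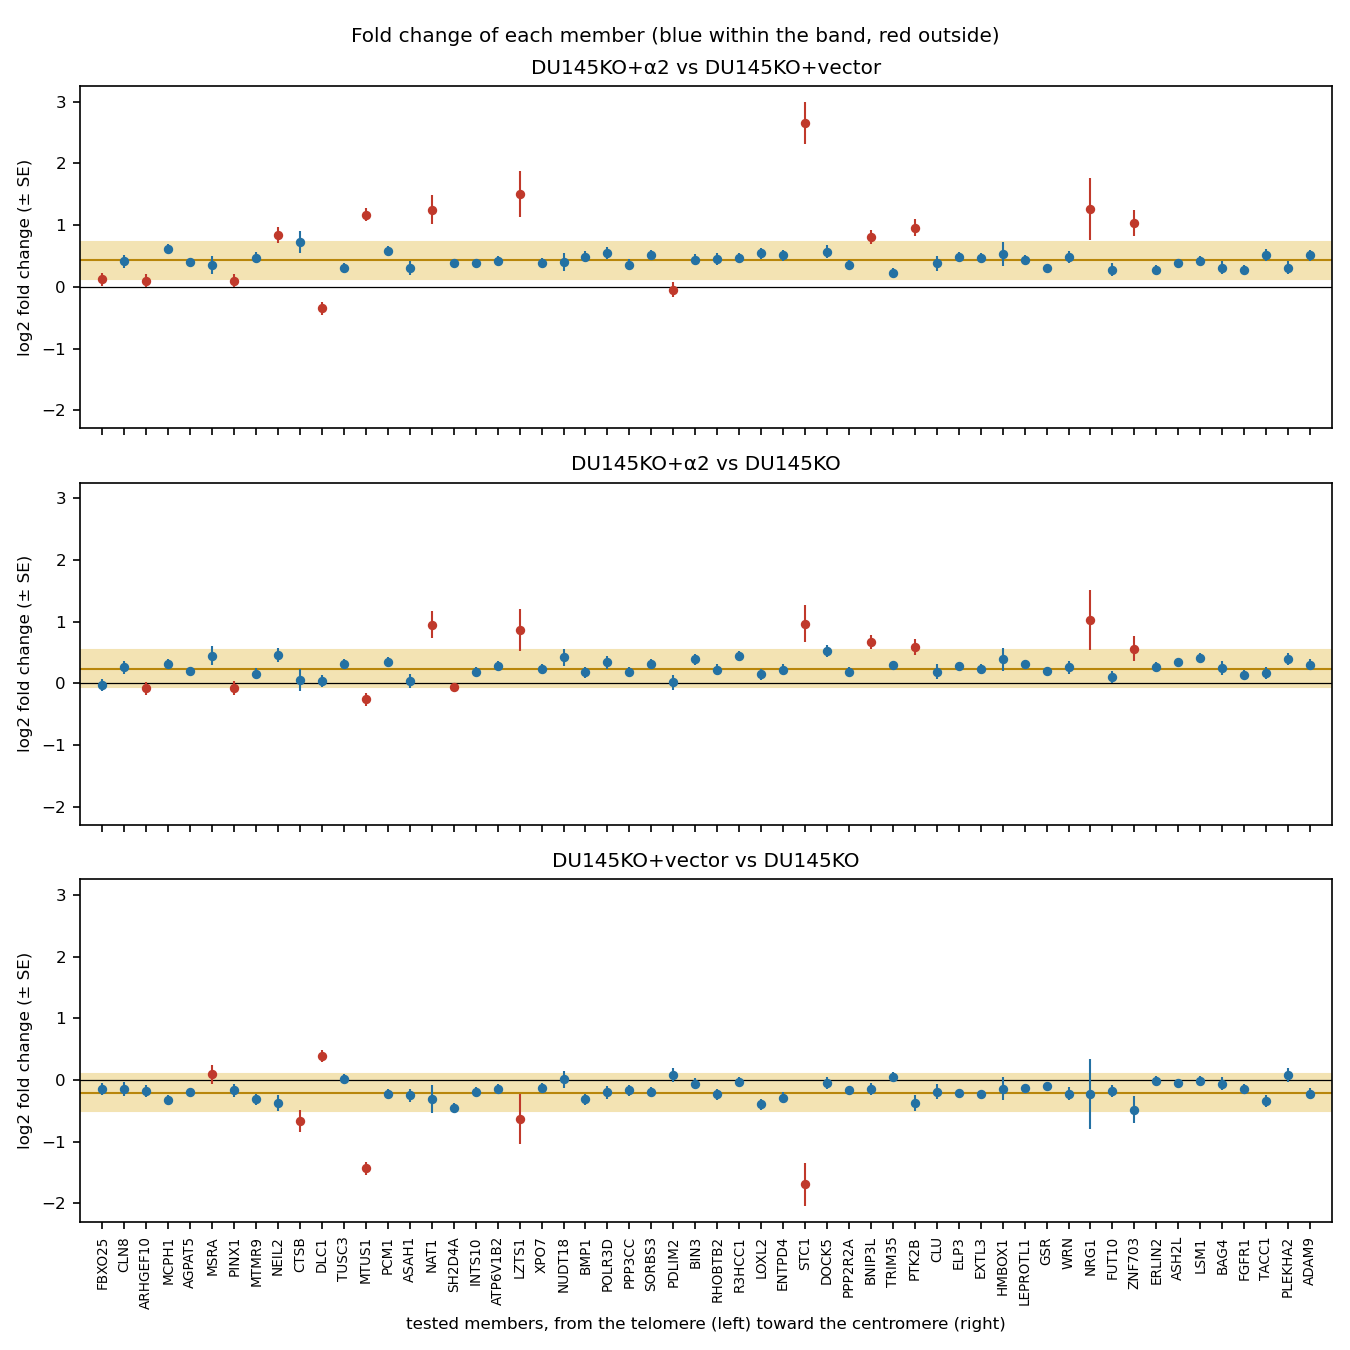
Log2 fold change (points) with SE (bars) of each tested gene in the 3 comparisons, ordered from the telomere to the centromere. The line is the median of the other tested 8p genes (0.43, 0.24 and −0.21 from top to bottom) and the band spans 0.3 on either side, with 42, 45 and 50 of the 56 genes inside it. In the middle and bottom panels the band also takes in genes without a shift.

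LSM1 and ATP6V1B2 lay nearest the 8p median. LSM1 (chromosome 8, 38163321 to 38176730), a subunit of the ring that binds messenger RNA for decay, was measured at 49.0, 40.4, 44.6 and 48.4 CPM in DU145KO, at 60.5, 53.3, 63.9 and 64.2 CPM in DU145KO+α2 and at 47.7, 43.8, 47.2 and 41.8 CPM in DU145KO+vector. Every DU145KO+α2 sample lay above the samples of the other lines, which overlapped with each other. Its log2 fold change was 0.42 ± 0.08 (SE) against DU145KO+vector and 0.41 ± 0.08 against DU145KO, the second with an edgeR adjusted p of 0.00585. Of its exon bases, 11.8% overlap BAG4 on the opposite strand.

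ATP6V1B2 (20197381 to 20221696) encodes a subunit of the proton pump that acidifies lysosomes. It stood at 69.7, 78.5, 77.0 and 64.9 CPM in DU145KO, at 87.4, 93.0, 86.7 and 85.0 CPM in DU145KO+α2 and at 59.9, 74.5, 64.2 and 65.2 CPM in DU145KO+vector. Again DU145KO+α2 stood above samples of the other lines without overlap. Its log2 fold change over DU145KO+vector was 0.42 ± 0.08, and over DU145KO it was 0.28 ± 0.08 (edgeR adjusted p = 0.0419).

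Among genes of lysosomes and lipid handling, CTSB, the protease cathepsin B, was the most abundant gene of the selection by length-scaled level, with a mean deposited RPKM of 482 for DU145KO, 507 for DU145KO+α2 and 307 for DU145KO+vector. Single DU145KO samples reached 2646, 1851, 1724 and 1547 CPM, DU145KO+α2 samples 2272, 2070, 1827 and 1916 CPM, and DU145KO+vector samples 1649, 1247, 1105 and 901 CPM. DU145KO covered the range of DU145KO+α2 and overlapped with DU145KO+vector. Its log2 fold change was 0.72 ± 0.18 against DU145KO+vector, at the edge of the band, 0.06 ± 0.18 for DU145KO+α2 against DU145KO (edgeR adjusted p = 0.905) and −0.66 ± 0.18 for DU145KO+vector against DU145KO. The last had an edgeR adjusted p of 0.0778, and of 1.27e-05 with the replicate block. All 7 genes of this group (CLN8, AGPAT5, MTMR9, CTSB, the acid ceramidase ASAH1, ATP6V1B2 and PLEKHA2) lay near the 8p median in DU145KO+α2 against DU145KO+vector, at 0.30 to 0.72. Over DU145KO, 2 of the 7 were called higher, beside the 3.09% of all genes.

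MTUS1 (17643802 to 17801521) encodes a microtubule-associated protein. It was measured at 102, 92.1, 86.0 and 86.8 CPM in DU145KO, at 86.2, 69.5, 75.2 and 76.1 CPM in DU145KO+α2 and at 40.6, 36.2, 31.4 and 27.7 CPM in DU145KO+vector. Untransfected cells had the highest mean, and all DU145KO+vector samples lay below all others. MTUS1 had a log2 fold change of −1.43 ± 0.11 in DU145KO+vector against DU145KO (edgeR adjusted p = 7.74e-06). In DU145KO+α2 against DU145KO it was −0.26 ± 0.10 (edgeR adjusted p = 0.158, and 0.00582 with the replicate block). Against DU145KO+vector it was 1.17 ± 0.11, a fold of 2.26.

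PTK2B (27310506 to 27459391), which encodes the focal adhesion kinase relative Pyk2, was at 58.9, 45.2, 36.3 and 43.1 CPM in DU145KO, at 67.0, 67.0, 69.6 and 72.2 CPM in DU145KO+α2 and at 44.2, 32.5, 30.1 and 35.0 CPM in DU145KO+vector. DU145KO+α2 samples lay above all others. The log2 fold change of PTK2B in DU145KO+α2 over DU145KO was 0.59 ± 0.13 (edgeR adjusted p = 0.0111). In DU145KO+vector against DU145KO, where samples overlapped, the log2 fold change was −0.37 ± 0.13 (edgeR adjusted p = 0.189, and 0.0242 with the replicate block). Its value against DU145KO+vector was 0.96 ± 0.13.

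DLC1 (13083361 to 13604620) was the clearest opposite case. It stood at 39.5, 42.7, 45 and 48.3 CPM in DU145KO, at 48.9, 50.2, 39.8 and 41.6 CPM in DU145KO+α2 and at 50.3, 61.0, 52.8 and 66.1 CPM in DU145KO+vector. All DU145KO+vector samples lay above the others, the nearest at 50.3 CPM beside 50.2 CPM in DU145KO+α2. The log2 fold change of DU145KO+α2 against DU145KO+vector was −0.35 ± 0.10. In DU145KO+vector against DU145KO it was 0.39 ± 0.10 (edgeR adjusted p = 0.0592, and 0.00732 with the replicate block), and in DU145KO+α2 against DU145KO it was 0.04 ± 0.10 (edgeR adjusted p = 0.879).

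PDLIM2 (22578741 to 22598026), a PDZ and LIM domain protein of the cytoskeleton and nucleus, did not separate the lines. It was at 13.5, 14, 13.1 and 15.5 CPM in DU145KO, at 11.7, 14.7, 13.7 and 16.9 CPM in DU145KO+α2 and at 12.9, 14.4, 14.8 and 17.2 CPM in DU145KO+vector. All 3 lines overlapped. Its log2 fold changes were −0.05 ± 0.12, 0.02 ± 0.12 and 0.08 ± 0.12 in the order of comparisons used above. SORBS3, BIN3, RHOBTB2, DOCK5, PCM1 and TACC1 had log2 fold changes of 0.44 to 0.58 in DU145KO+α2 against DU145KO+vector.

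ARHGEF10 (1823329 to 1958641) was measured at 62.9, 71.5, 70.0 and 55.8 CPM in DU145KO, at 55.1, 66.8, 66.9 and 56.7 CPM in DU145KO+α2 and at 55.0, 63.7, 61.1 and 49.3 CPM in DU145KO+vector. The lines overlapped throughout. Its log2 fold change was 0.10 ± 0.10 for DU145KO+α2 against DU145KO+vector and −0.08 ± 0.10 against DU145KO (edgeR adjusted p = 0.711). Of its exon bases, 59.2% overlap KBTBD11-OT1 on the same strand, a gene with a mean of 5.25 counts per sample.

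**Figure D5:**
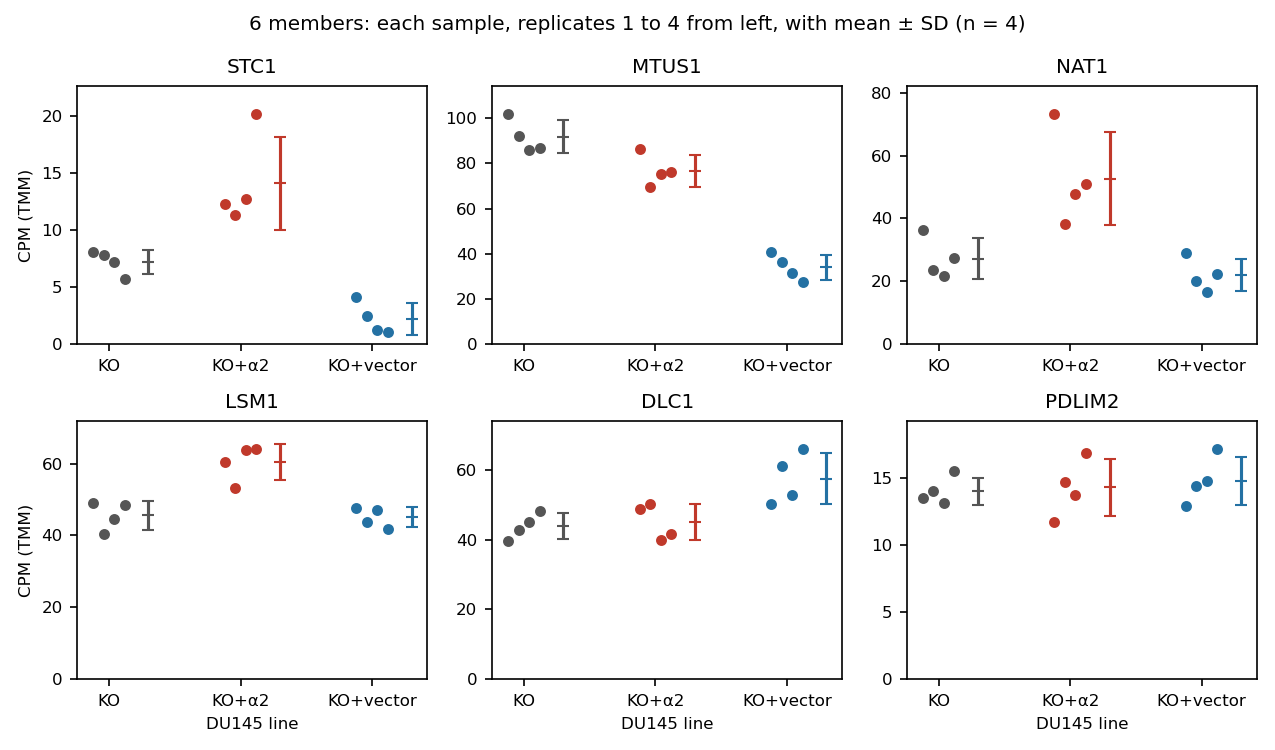
CPM of 6 of the genes in each sample of DU145KO, DU145KO+α2 and DU145KO+vector (points, replicates 1 to 4 from left), with mean ± SD (n = 4). STC1, NAT1 and LSM1 are highest in DU145KO+α2, MTUS1 is lowest in DU145KO+vector at 27.7 to 40.6 CPM, DLC1 is highest there at 50.3 to 66.1 CPM, and PDLIM2 overlaps in all 3 lines.

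Of 5 secreted and matrix genes, 4 kept to the 8p median in DU145KO+α2 against DU145KO+vector. CLU (clusterin, a secreted chaperone), BMP1 (the procollagen C-proteinase), LOXL2 (a collagen crosslinking oxidase) and ADAM9 had log2 fold changes of 0.38 to 0.54. LOXL2 had −0.39 ± 0.09 in DU145KO+vector against DU145KO (edgeR adjusted p = 0.0389), a call that was lost in some fits with a sample left out. In DU145KO+α2 against DU145KO the edgeR adjusted p of the 5 ran from 0.0503 for ADAM9 to 0.415 for CLU, and with the replicate block 3 of them were called higher, ADAM9 (0.000175), BMP1 (0.0100) and CLU (0.0489), beside 9.93% of all genes.

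STC1 (23841929 to 23854806), which encodes the secreted hormone stanniocalcin 1, had the largest fold of all the selected genes. It stood at 8.07, 7.82, 7.19 and 5.74 CPM in DU145KO, at 12.3, 11.3, 12.7 and 20.2 CPM in DU145KO+α2 and at 4.10, 2.44, 1.21 and 1.03 CPM in DU145KO+vector. The lines did not overlap. Of the DU145KO+α2 samples replicate 4 was highest, and within DU145KO+vector the samples spread by more than those of the other lines in proportion to their mean (2.20 ± 1.42 CPM, SD, n = 4). STC1 had a log2 fold change of −1.69 ± 0.35 in DU145KO+vector against DU145KO (edgeR adjusted p = 0.0230), a call that was lost in 5 of the fits with a sample left out. In DU145KO+α2 against DU145KO it was 0.97 ± 0.30 (edgeR adjusted p = 0.0679). Against DU145KO+vector it was 2.66 ± 0.34, a fold of 6.31.

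Genes of DNA repair and telomeres numbered 5, with log2 fold changes of 0.10 to 0.84 in DU145KO+α2 against DU145KO+vector. NEIL2 (11769710 to 11787345), a glycosylase that starts base excision repair, was at 19.0, 17.7, 18.9 and 14.7 CPM in DU145KO, at 20.6, 28.0, 23.3 and 24.4 CPM in DU145KO+α2 and at 13.3, 16.3, 13.1 and 11.4 CPM in DU145KO+vector. DU145KO+α2 stood above all other samples. NEIL2 had a log2 fold change of 0.46 ± 0.12 over DU145KO (edgeR adjusted p = 0.0306) and of 0.84 ± 0.13 over DU145KO+vector. Microcephalin (MCPH1), of the DNA damage response, had 0.31 ± 0.08 in DU145KO+α2 (edgeR adjusted p = 0.0200) and −0.32 ± 0.08 in DU145KO+vector (edgeR adjusted p = 0.0477), both against DU145KO. The second call was lost with the size factors of DESeq2, with voom and in some fits with a sample left out. The RecQ helicase WRN had 0.48 ± 0.10 against DU145KO+vector.

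PINX1 (10764961 to 10839875), an inhibitor of telomerase, departed below. It was measured at 9.06, 11.3, 10.7 and 10.3 CPM in DU145KO, at 9.32, 10.8, 9.75 and 9.42 CPM in DU145KO+α2 and at 8.70, 8.33, 9.72 and 9.92 CPM in DU145KO+vector. Samples of all 3 lines overlapped, and the log2 fold change of DU145KO+α2 was 0.10 ± 0.11 over DU145KO+vector and −0.07 ± 0.11 over DU145KO (edgeR adjusted p = 0.787). SOX7 overlaps 31.1% of its exon bases on the same strand, with a mean of 9.58 counts per sample.

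The 7 genes of transcription, RNA and chromatin had log2 fold changes of 0.38 to 1.04 in the α2 against vector comparison and of 0.19 to 0.56 over DU145KO, where 5 of the 7 were called higher, beside the 3.09% of all genes. ASH2L, a core subunit of histone H3 lysine 4 methyltransferases, had 0.34 ± 0.06 over DU145KO (edgeR adjusted p = 0.00324), R3HCC1 had 0.44 ± 0.08 (edgeR adjusted p = 0.00176) and the Elongator subunit ELP3 had 0.28 ± 0.07 (edgeR adjusted p = 0.0200). These are small and even differences with low errors. INTS10, of the Integrator complex, had 0.19 ± 0.07 (edgeR adjusted p = 0.108, and 0.0110 with the replicate block).

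ZNF703 (37695782 to 37700019), a zinc finger repressor amplified in some breast cancers, was the only gene of this group outside the band. It stood at 4.30, 2.81, 2.52 and 4.16 CPM in DU145KO, at 5.53, 5.25, 4.31 and 5.22 CPM in DU145KO+α2 and at 2.94, 2.15, 1.78 and 2.96 CPM in DU145KO+vector. DU145KO+α2 lay above all other samples, with 4.31 CPM beside 4.30 CPM in DU145KO as the nearest pair, and DU145KO overlapped with DU145KO+vector. Its log2 fold change over DU145KO+vector was 1.04 ± 0.21, and that over DU145KO was 0.56 ± 0.20 (edgeR adjusted p = 0.111, and 0.00709 with the replicate block).

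The group of mitochondria, ubiquitin and transport held 7 genes, with log2 fold changes of 0.12 to 1.25 in DU145KO+α2 against DU145KO+vector. NAT1 (18170467 to 18223689), which acetylates arylamines, was at 36.3, 23.7, 21.6 and 27.3 CPM in DU145KO, at 73.3, 38.3, 47.8 and 50.8 CPM in DU145KO+α2 and at 29.0, 20, 16.6 and 22.2 CPM in DU145KO+vector. Every DU145KO+α2 sample lay above the rest, and replicate 1 was the highest of its line in each of the 3. NAT1 had a log2 fold change of 0.95 ± 0.22 over DU145KO (edgeR adjusted p = 0.0218, and 1.29e-08 with the replicate block), a call lost without DU145KO replicate 2, 3 or 4 and without DU145KO+α2 replicate 4, and with no filter on low counts. The mitophagy receptor BNIP3L had 0.67 ± 0.11 over DU145KO (edgeR adjusted p = 0.000831) and averaged 474 ± 62.7 CPM in DU145KO+α2, beside 299 ± 28.9 CPM in untransfected cells and 270 ± 28.1 CPM in DU145KO+vector (SD, n = 4).

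FBXO25 and TRIM35, parts of ubiquitin ligases, had small differences. FBXO25 (406958 to 477967) was measured at 15.9, 15.0, 18.5 and 15.3 CPM in DU145KO, at 16.3, 17.0, 16.2 and 13.8 CPM in DU145KO+α2 and at 14.6, 14.6, 15.6 and 13.4 CPM in DU145KO+vector. It overlapped between all lines and had log2 fold changes of 0.12 ± 0.10 against DU145KO+vector and −0.03 ± 0.10 against DU145KO. TRIM35 (27284886 to 27311272) was at 26.7, 23.0, 25 and 23.8 CPM in DU145KO, at 31.2, 28.8, 27.5 and 32.7 CPM in DU145KO+α2 and at 25.8, 24.1, 26.5 and 25.6 CPM in DU145KO+vector. Here DU145KO+α2 lay above both other lines, which overlapped. TRIM35 had 0.29 ± 0.08 over DU145KO (edgeR adjusted p = 0.0380) and 0.23 ± 0.08 against DU145KO+vector.

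Growth factor signalling held 8 genes, of which 7 were tested and 5 kept to the 8p median in DU145KO+α2 against DU145KO+vector. The receptor FGFR1 had 0.28 ± 0.07, the phosphatase subunits PPP2R2A and PPP3CC had 0.36 ± 0.07 and 0.36 ± 0.09, and SH2D4A, an SH2 domain protein, had 0.38 ± 0.07. In DU145KO+α2 against DU145KO the edgeR adjusted p of the 7 ran from 0.0972 for PPP2R2A to 0.683 for SH2D4A. With the replicate block BAG4 (0.00520) and PPP2R2A (0.0151) were called higher, beside 9.93% of all genes. SH2D4A had −0.45 ± 0.07 in DU145KO+vector against DU145KO (edgeR adjusted p = 0.00362), where the DU145KO samples were at 46.6 to 49.3 CPM and the DU145KO+vector samples at 34.2 to 37.1 CPM. The ligand NRG1 had 2 to 29 counts per sample and LZTS1 had 4 to 23, so their log2 fold changes of 1.26 ± 0.50 and 1.50 ± 0.37 rest on few reads.

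The redox genes GSR and MSRA, a glutathione reductase and a methionine sulfoxide reductase, had 0.30 ± 0.06 and 0.35 ± 0.15 in DU145KO+α2 against DU145KO+vector. The 5 genes of glycosylation and the endoplasmic reticulum (TUSC3, ENTPD4, EXTL3, FUT10 and ERLIN2) had 0.28 to 0.51. All lay within 0.3 of the 8p median in the 3 comparisons, a band that against DU145KO also takes in genes without a shift. TUSC3, a subunit of the oligosaccharyltransferase that N-glycosylates proteins, had 0.31 ± 0.08 in DU145KO+α2 (edgeR adjusted p = 0.0203), and its value in DU145KO+vector was 0.01 ± 0.08 (edgeR adjusted p = 0.980), both against DU145KO. RNA of whole spheroids was measured, so that a lower level in every cell and expression in fewer cells cannot be told apart.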

How the data were processed

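RNA of spheroids of 3 DU145 lines, with 4 replicates each, was sequenced from stranded mRNA libraries. Per the labels and the methods, the authors converted reads with bcl2fastq 1.8.4, aligned them to hg38 with TopHat 2.1.0 and counted unique alignments per gene with Subread 1.5.0. The strand setting of the counting is not given in the sources used here. The authors deposited unnormalized read counts, which were used for all tests, and RPKM values, which were used only to rank levels per gene length.

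The test was that of edgeR 4.0.16 in R 4.3.3 (filterByExpr with a minimum count of 10, normalization by the trimmed mean of M-values (TMM), robust quasi-likelihood F-test), with all 12 samples in 1 model with a factor for the line. P-values are two-sided, with a Benjamini-Hochberg adjustment across all 14732 genes. They rest on the spread between replicates, which the methods call biological. The SE of a log2 fold change was derived from the same test, as its absolute value divided by the square root of the F statistic. CPM values were normalized by TMM. Positions came from RefSeq genes of the same build, by gene ID for 26281 rows and by symbol for 7, with 197 left without one. The short arm was taken to 45 Mb.

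The 57 genes, their grouping by role and the tests were chosen with earlier results of these data known. Values of each sample are printed for the 6 genes with the largest and the 6 with the smallest log2 fold change of DU145KO+α2 against DU145KO+vector (average log2 CPM of at least 1), for departures of opposite sign and for the 2 genes nearest the 8p median. CTSB, the most abundant, was added after its values were seen, as were the values of the remaining genes given singly. The alternatives were DESeq2 1.42.0, voom with limma 3.58.1, other scalings and filters, a fit of the compared lines only, a block for the replicate number, and fits that leave out 1 sample each. Same-numbered samples deviated together in every pair of lines (correlations of 0.135 to 0.554 across genes), and the block treats them as paired. The main fit has no term for the replicate number, so its calls, p-values and SE do not use this pairing. The scripts were tested on simulated data. Sequences, copy number and protein measurements were not analysed here. Of the groups of genes by role, 1 is not summarized here.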

Additional observations from a re-analysis of the deposited data

Results flagged for a closer look

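Within a line, a sample was singled out where its gap to the nearest of the other 3, divided by the range of the 4, was above Dixon's 95% critical value for 4 samples. Of 169 sets of 4 samples tested, 12 met this, where chance alone gives about 1 in 20 (8.45). In DU145KO they were LOXL2 in replicate 1 (ratio 0.908, 104 CPM against 86.9 to 88.5 CPM) and, in replicate 4, MSRA (0.897, high), NRG1 (0.907, high at 1.29 CPM against 0.305 to 0.397 CPM), PPP3CC (0.850, low) and R3HCC1 (0.899, low). In DU145KO+α2 they were ENTPD4 in replicate 3 (0.939, 180 CPM against 141 to 143 CPM), LEPROTL1 in replicate 1 (0.875, high), NUDT18 in replicate 4 (0.835, 15.2 CPM against 14.8 CPM), R3HCC1 in replicate 1 (0.870, low) and STC1 in replicate 4 (0.842, 20.2 CPM against 11.3 to 12.7 CPM). In DU145KO+vector they were BNIP3L in replicate 1 (0.955, 312 CPM against 254 to 257 CPM) and LEPROTL1 in replicate 1 (0.859, high).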

How the results depend on the processing

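No direction of a called result reversed. With the replicate block, genes higher in DU145KO+α2 than DU145KO numbered 39 (20 without it) and lower 1, and in DU145KO+vector against DU145KO 26 were lower (5 without it) and 1 higher. All calls made without the block were kept with it. In that last comparison DESeq2 called 8 lower and 1 higher, no filter gave 1 higher, and a fit of only the 2 lines gave 3 lower. The shares of all genes in these fits are not given here. With each sample left out in turn, genes called higher and lower ranged over 38 to 44 and 0 to 1 in DU145KO+α2 against DU145KO+vector, 13 to 22 and 0 in DU145KO+α2 against DU145KO, and 0 to 1 and 2 to 8 in DU145KO+vector against DU145KO. The call of DLC1 as lower was lost without DU145KO+α2 replicate 3 or 4 or DU145KO+vector replicate 2 or 4. Medians ranged over 0.42 to 0.46, 0.24 to 0.30 and −0.21 to −0.16. Apart from fits with fewer samples, the cause of these changes was not tested. Of single-gene values under the other alternatives, 1246 kept their side of the threshold, 76 gained a call and 14 lost it. With the genes before 40 Mb as reference, chosen after seeing the data, the 8p median in DU145KO+α2 against DU145KO was 0.29. Depth limits LZTS1, NRG1 and DOK2.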
